A study of Homo sapiens with 9 samples.

Results

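The Notch pathway genes described here are 3 receptors (NOTCH1, NOTCH2 and NOTCH3), 4 ligands (JAG1, JAG2, DLL1 and DLL3) and 3 target genes (HES1, HEY1 and HEY2). These 10 genes were selected by symbol from the 60603 genes of a table of RNA-seq counts. The rule used no measured value, but the members were chosen with earlier results of these data known. The RNA came from TC32, a line of Ewing sarcoma cells in wide use, driven by the fusion oncogene EWS::FLI1. All 9 libraries are labelled as wild-type TC32 cells of batch 1 at 30 h, in 3 groups of 3 biological replicates. Cells of the siEF group received an siRNA placed across the breakpoint of the fusion. Those of the siNEG group received an siRNA without a specific target, and the Media group is labelled as medium alone. The comparison of siEF with siNEG asks which genes depend on the fusion, and the comparison of siNEG with Media measures transfection and the nonspecific siRNA together, which cannot be told apart in this design. All 3 groups are a single cell line at a single time, and the study's methods describe the breakpoint siRNA but neither control group.

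Notch signalling passes between touching cells. A ligand of the Jagged or Delta-like family on one cell binds a Notch receptor on its neighbour, proteases then release the intracellular part of the receptor, and that part enters the nucleus, where it joins the DNA-binding protein RBPJ and a Mastermind coactivator to switch on genes. The best known of these genes encode the HES and HEY proteins, basic helix-loop-helix repressors that hold back differentiation genes in many developing tissues. HES1 represses its own promoter, and HES and HEY genes also answer to signals other than Notch.

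The libraries held between 20727706 and 33134581 expected counts, and levels are given as CPM, counts per 1000000 counts of a library whose size was scaled by the trimmed mean of M values (TMM). The 10 most abundant genes accounted for 12.3% to 12.9% of reads in siEF libraries and for 5.78% to 6.62% in siNEG and Media libraries. The fusion transcript shares sequence with FLI1. FLI1 lay between 35.5 and 39.4 CPM in siEF, 48.0 and 48.6 CPM in siNEG, and 56.2 and 59.5 CPM in Media. The study's methods state that silencing was checked by qPCR, with a 3-cycle change in expression, a different measure from these FLI1 counts. The study also states that these cells do not express FLI1 itself. FLI1 counts were 1.28-fold lower in siEF than in siNEG, and the gap to the qPCR change was not tested. All 4 Ewing sarcoma markers (CD99, NKX2-2, NR0B1 and STEAP1) were detected in every library, and their summed level was between 235 and 243 CPM in siEF, 394 and 415 CPM in siNEG, and 489 and 547 CPM in Media. Of these 4, CD99 was higher in siEF than in siNEG (Log2FC 0.23), and NKX2-2 (-1.445), NR0B1 (-2.97) and STEAP1 (-2.29) were lower. The study describes NR0B1 as an established target induced by the fusion. CD3E, a T cell marker, had no count in any library, and VWF, an endothelial marker, had at most 3 counts in a library. The 3 blood markers together reached between 5.54 and 7.75 CPM in siEF and at most 2.75 CPM elsewhere, nearly all of it CD68. The 3 endothelial markers together reached at most 5.06 CPM and the 2 epithelial markers at most 1.48 CPM in a library. The part of these differences in the Notch results was not tested, and in bulk RNA fewer cells of a type cannot be told apart from less RNA per cell.

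The Notch genes changed in both directions when siEF was compared with siNEG, and so did the genes tested as a whole. HEY1 was 3.68-fold higher and NOTCH3 was 1.62-fold higher in siEF, while HES1 was 2.57-fold lower, NOTCH2 1.97-fold lower and JAG2 1.52-fold lower. HEY2, present at a few counts per library, was tested only because siEF passed the filter on low counts, so its direction was fixed by the filter. NOTCH1, JAG1 and DLL3 did not reach an adjusted P under 0.01 in edgeR's quasi-likelihood test, the threshold for a change used here, and DLL1 was too low to be tested. Of the 8 members whose testing did not hinge on siEF alone, 2 were therefore higher, 3 lower and 3 not changed, with a median Log2FC (log2 fold change) of -0.20. With HEY2 included, 3 of 9 were higher and the median was 0.13. Over all 16093 genes tested the median Log2FC was 0.046, 33.6% were higher and 31.7% were lower. Past a Log2FC of 1 in size, HEY1 was higher and HES1 lower among the 8 members, where 17.1% of all genes were higher and 11.7% lower. In 7 of the 8 members the siEF and siNEG libraries did not overlap, and the same was true of 76.9% of all genes tested.

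**Figure D1:**
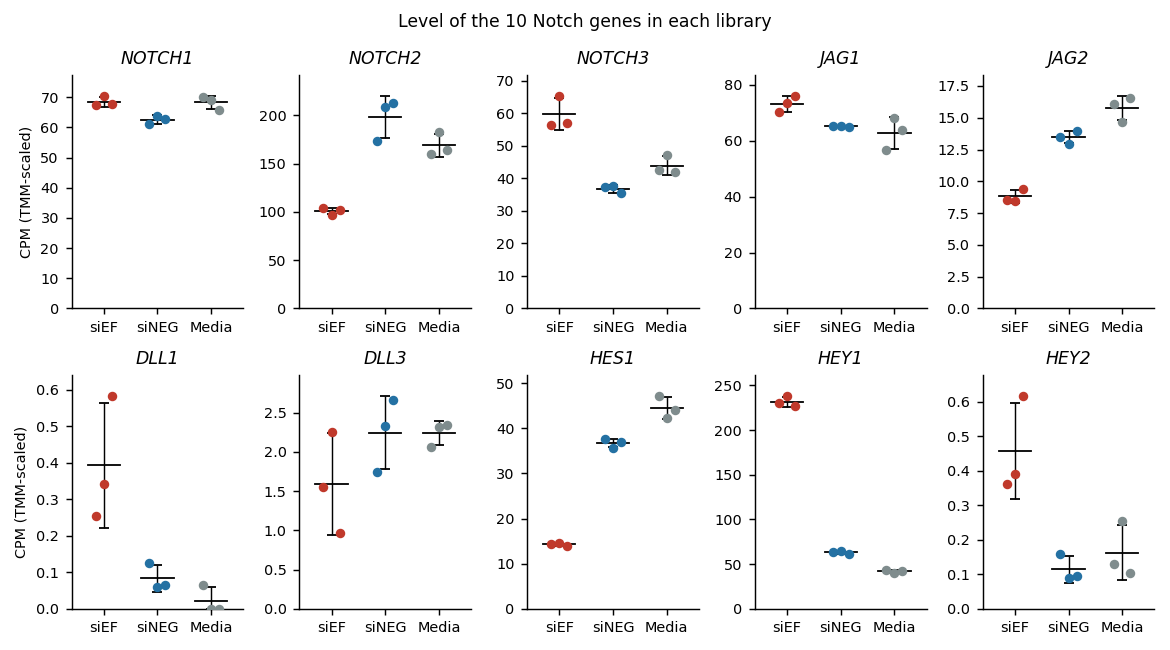
TMM-scaled CPM (vertical axes, linear from 0) of each of the 10 genes in the 3 libraries of siEF, siNEG and Media. Points are libraries, the wide line is the group mean and the bar is the SD (n = 3), drawn no lower than 0. HEY1 stands far higher in siEF (226 to 238 CPM) than in siNEG (61.5 to 64.1 CPM), while HES1 and NOTCH2 show the opposite arrangement.

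The ligands are described first. JAG1 (ENSG00000101384.12, chromosome 20, 10637684 to 10673999 of GRCh38, minus strand) encodes Jagged1, a membrane ligand for all the receptors here. JAG1 had 70.2, 73.6 and 76.0 CPM in siEF replicates 1, 2 and 3, 65.1, 65.5 and 64.9 CPM in siNEG, and 56.6, 68.1 and 63.9 CPM in Media. Every siEF library was above every siNEG and Media library, but by a small margin. In siEF versus siNEG, Log2FC was 0.17 (SE 0.06, 95% interval 0.04 to 0.30), with an adjusted P of 0.0237 from edgeR's quasi-likelihood test. This call depended on the analysis: JAG1 passed the threshold with upper quartile scaling (adjusted P = 0.0016), with only the 6 libraries compared (adjusted P = 0.00499) and without Media replicate 1 (adjusted P = 0.00701), each in edgeR.

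JAG2 (ENSG00000184916.9, chromosome 14, 105140982 to 105168824, minus strand) encodes the second Jagged ligand. It was lower after the fusion siRNA. JAG2 had 8.56, 8.47 and 9.43 CPM in siEF, 13.5, 13.0 and 13.9 CPM in siNEG, and 16.1, 14.7 and 16.6 CPM in Media, so the 3 groups did not overlap. In siEF versus siNEG, Log2FC was -0.61 (SE 0.09, adjusted P = 8.57e-06, edgeR's quasi-likelihood test). Per length of exon, JAG1 was more abundant than JAG2 in every library, and the ratio of JAG1 to JAG2 was 5.72 ± 0.225 in siEF, 3.33 ± 0.135 in siNEG and 2.76 ± 0.392 in Media (mean ± SD, n = 3 each). A long noncoding RNA on the same strand shares 469 bases (7.3%) of the JAG2 exons, and it held 16.6 counts in all libraries together.

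The Delta-like ligands were scarce. DLL3 (ENSG00000090932.10, chromosome 19, 39498895 to 39508481, plus strand) encodes an unusual Delta-like protein that is known to hold back Notch signalling within its own cell. DLL3 had 43, 46 and 28 counts in siEF, 55, 79 and 83 counts in siNEG, and 63, 73 and 67 counts in Media. After scaling, siEF (0.960 to 2.25 CPM) and siNEG (1.74 to 2.66 CPM) overlapped. The Log2FC was -0.53 (SE 0.28, 95% interval -1.11 to 0.06, adjusted P = 0.0962 in edgeR's quasi-likelihood test), so the difference did not reach the threshold. The interval holds no change as well as a fall past a Log2FC of -1. Over the alternatives the Log2FC ranged from -0.84 to -0.25, and none passed the threshold. The group sums of 117 counts in siEF and 217 in siNEG gave a depth-scaled ratio of 0.647 (exact 95% interval 0.512 to 0.814). That interval covers counting error only and leaves out the spread between libraries.

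DLL1 (ENSG00000198719.9, chromosome 6, 170282206 to 170306565, minus strand) encodes an activating Delta-like ligand. It had 7, 7 and 17 counts in siEF, 4, 2 and 2 in siNEG, and 2, 0 and 0 in Media, and it did not pass the filter on low counts. Every siEF library was above every control library. Summed over each group, 31 counts in siEF against 8 in siNEG gave a depth-scaled ratio of 4.65, with an exact 95% interval of 2.09 to 11.7 that covers counting error only. Against the 2 counts in Media the ratio was 17.8 (exact 95% interval 4.53 to 154). FAM120B, on the opposite strand, shares 370 bases (9.7%) of the DLL1 exons. The mean level of FAM120B was 46.2 CPM (SD 0.679) in siEF, 33.3 CPM (SD 2.24) in siNEG and 33.1 CPM (SD 0.495) in Media (n = 3 each). The strand setting of the counting is not given in the sources used here, so reads of this stretch cannot be assigned to DLL1 with certainty, and the part of FAM120B in the DLL1 counts was not tested.

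The 3 receptors each behaved differently. NOTCH1 (ENSG00000148400.12, chromosome 9, 136494433 to 136546048, minus strand) is the receptor best known from T cell leukaemia. NOTCH1 had 67.5, 70.4 and 67.6 CPM in siEF, 61.1, 63.9 and 62.7 CPM in siNEG, and 70.0, 68.9 and 65.8 CPM in Media. The siEF libraries were above the siNEG libraries and overlapped those of Media. The Log2FC was 0.13 (SE 0.05, 95% interval 0.02 to 0.24, adjusted P = 0.0292) against siNEG and 0.00 (SE 0.05, 95% interval -0.10 to 0.11, adjusted P = 0.949) against Media in edgeR's quasi-likelihood test. Both comparisons use the same siEF libraries. With upper quartile scaling the Log2FC against siNEG was 0.22 and its adjusted P in edgeR was 0.000933.

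NOTCH2 (ENSG00000134250.20, chromosome 1, 119911553 to 120100779, minus strand) fell after the fusion siRNA. NOTCH2 had 104, 97.1 and 102 CPM in siEF, 174, 209 and 213 CPM in siNEG, and 160.3, 183 and 164 CPM in Media. The highest siEF library was well below the lowest control library, and siNEG replicate 1 was the lowest of its group. In siEF versus siNEG, Log2FC was -0.97 (SE 0.07, adjusted P = 1.95e-09, edgeR's quasi-likelihood test).

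NOTCH2 has near-identical partial copies on chromosome 1, the human-specific NOTCH2NL genes, which encode short proteins made from the first exons of NOTCH2. Of the 11376 stretches of 50 bases in the NOTCH2 transcript of 11425 bases that is the longest of the gene in GENCODE 44, 553 (4.9%) also occur in a NOTCH2NL transcript, all of them within its first 1009 bases. Reads from there had to be divided among the copies by the counting software, so the split between NOTCH2 and NOTCH2NL is uncertain. The summed level of NOTCH2NLA, NOTCH2NLB, NOTCH2NLC and NOTCH2NLR was 33.9 CPM in siEF (SD 2.41), 19.96 CPM in siNEG (SD 1.32) and 20.3 CPM in Media (SD 1.75, n = 3 each). NOTCH2NLA (Log2FC 0.88), NOTCH2NLC (0.65) and NOTCH2NLR (1.21) were higher in siEF than in siNEG, and NOTCH2NLB, at 0.61, had an adjusted P of 0.0424 in edgeR's quasi-likelihood test. With all 4 copies added to NOTCH2, the Log2FC of the sum was -0.70 (adjusted P = 5.79e-08, edgeR).

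NOTCH3 (ENSG00000074181.9, chromosome 19, 15159038 to 15200995, minus strand) is the receptor known from smooth muscle of small arteries. It rose where NOTCH2 fell. NOTCH3 had 56.5, 65.3 and 57.1 CPM in siEF, 37.3, 37.7 and 35.4 CPM in siNEG, and 42.5, 47.2 and 42.0 CPM in Media. All siEF libraries were above all control libraries, and Log2FC in siEF versus siNEG was 0.69 (SE 0.07, adjusted P = 1.02e-07, edgeR's quasi-likelihood test).

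To set the receptors on a common scale, CPM was divided by the length of each gene's exons in kilobases, and each receptor's share of the sum was taken within each library. NOTCH2 made up 57.0% ± 2.698 (SD, n = 3) of the receptor level per length in siNEG and 49.9% ± 1.14 (SD, n = 3) in Media, but 33.8% ± 1.96 (SD, n = 3) in siEF. NOTCH3 went from 18.9% ± 1.59 (SD, n = 3) in siNEG to 35.5% ± 2.01 (SD, n = 3) in siEF, and NOTCH1 from 24.1% ± 1.117 to 30.7% ± 0.0865 (SD, n = 3 each). The siEF libraries overlapped those of siNEG in none of the 3 shares. On this scale NOTCH2 was the most abundant receptor transcript in siNEG and Media, and in siEF the 3 shares were close to each other. The second statement changed with the length used. With the longest transcript as the length, the NOTCH2 share was 39.0% in siEF, 62.0% in siNEG and 55.2% in Media, and in siEF NOTCH1 had 30.7% and NOTCH3 30.3%, so that NOTCH2 was the largest share in all 3 groups.

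Among the target genes, HEY1 carried the clearest rise. HEY1 (ENSG00000164683.17, chromosome 8, 79762371 to 79767857, minus strand) encodes a transcriptional repressor known from heart and vessel development. HEY1 had 230.5, 238 and 226 CPM in siEF, 63.4, 64.1 and 61.5 CPM in siNEG, and 43.1, 40.6 and 41.9 CPM in Media. The 3 groups were far apart and the spread within each was small. In siEF versus siNEG, Log2FC was 1.88 (SE 0.05, adjusted P = 2.55e-15, edgeR's quasi-likelihood test), the 1406th highest of the 16093 genes tested. HEY1 was also higher in siNEG than in Media, by a Log2FC of 0.59 (SE 0.05, adjusted P = 3.29e-07, edgeR).

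HES1 (ENSG00000114315.4, chromosome 3, 194136148 to 194138732, plus strand), the most widely used readout of Notch activity, went the other way. HES1 had 14.4, 14.6 and 13.9 CPM in siEF, 37.5, 35.7 and 36.9 CPM in siNEG, and 47.2, 42.4 and 44.1 CPM in Media. Its highest siEF library was under 15 CPM and its lowest control library above 35 CPM. In siEF versus siNEG, Log2FC was -1.36 (SE 0.07, adjusted P = 9.87e-12, edgeR's quasi-likelihood test), and that of siNEG against Media was -0.28 (SE 0.06, adjusted P = 0.00331, edgeR). The second of these calls did not hold when siNEG replicate 1, 2 or 3 or Media replicate 1 was left out, with edgeR adjusted P values of 0.0104, 0.024, 0.0148 and 0.016.

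HEY1 and HES1 moved apart, and their ratio within a library, which needs no scaling between libraries, separated the groups. Per length of exon, the HEY1 to HES1 ratio was 6.01, 6.10 and 6.11 in siEF, 0.634, 0.674 and 0.626 in siNEG, and 0.343, 0.359 and 0.357 in Media. The means were 6.07 ± 0.0504, 0.645 ± 0.0261 and 0.353 ± 0.00868 (SD, n = 3 each). HEY1 exceeded HES1 on the per-length scale in every siEF library and in no library of siNEG or Media.

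HEY2 (ENSG00000135547.9, chromosome 6, 125747664 to 125761269, plus strand), a close relative of HEY1 that works beside it in the developing heart, was barely detected. HEY2 had 10, 8 and 18 counts in siEF, 5, 3 and 3 in siNEG, and 4, 8 and 3 in Media. It passed the filter on low counts through siEF alone, since no control library reached the limit of 0.33 CPM, so a tested HEY2 had to differ. The group sums of 36 counts in siEF and 11 in siNEG gave a depth-scaled ratio of 3.93 (exact 95% interval 1.96 to 8.55, counting error only). The fitted Log2FC of 1.98 (SE 0.54, adjusted P = 0.00372, edgeR's quasi-likelihood test) did not pass the threshold with DESeq2 (adjusted P = 0.0279), without the filter (0.0181) or with a replicate block (0.0101). It also failed without siEF replicate 3 (adjusted P = 0.0326), siNEG replicate 2 (0.0233) or siNEG replicate 3 (0.0205), again in edgeR.

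The promoters of the HES and HEY genes, other than HEY1, were searched for TGGGAA on both strands. TGGGAA is the core of the word that RBPJ is known to bind. The longer GTGGGAA, which contains it, was also searched for on both strands. The sequences, from RefSeq on GRCh38.p14, ran from 250 bases before to 50 bases after the start of each gene. Of the 35116 promoters in the table, 24.0% hold TGGGAA and 3.8% hold it at least 2 times, while 6.2% hold GTGGGAA. Of the 10 members and the other HES and HEY genes, 14 matched an entry by symbol, 6 of these hold TGGGAA and 5 hold GTGGGAA. HEY1, DLL1 and DLL3 did not match, so their promoters were not searched. HES4, which fell, and HES3 hold TGGGAA at 1 place each, and HES5 holds it at 2. HES6, which also fell, holds none, and neither do HES7, whose direction was fixed by the filter, and HES2, which had no count. No match lies in the windows of NOTCH1, NOTCH2, NOTCH3, JAG1 or JAG2. The windows of HES1, which fell, of HEYL, which rose, and of the sparsely counted HEY2 hold TGGGAA at 2 places each, and they are shown to let these places be compared. They run to 25 bases past the start, 5′ to 3′ along the gene, with TGGGAA or its complement in capitals. They are HES1 at chr3:194135898-194136172 (plus strand), HEY2 at chr6:125749382-125749656 (plus strand) and HEYL at chr1:39639619-39639893 (minus strand).
HES1: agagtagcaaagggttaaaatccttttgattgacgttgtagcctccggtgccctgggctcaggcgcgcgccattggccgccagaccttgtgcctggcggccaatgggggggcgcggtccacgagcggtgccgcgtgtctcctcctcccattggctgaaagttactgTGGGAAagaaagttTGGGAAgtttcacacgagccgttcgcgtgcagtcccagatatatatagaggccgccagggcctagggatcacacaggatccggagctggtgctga
HEY2: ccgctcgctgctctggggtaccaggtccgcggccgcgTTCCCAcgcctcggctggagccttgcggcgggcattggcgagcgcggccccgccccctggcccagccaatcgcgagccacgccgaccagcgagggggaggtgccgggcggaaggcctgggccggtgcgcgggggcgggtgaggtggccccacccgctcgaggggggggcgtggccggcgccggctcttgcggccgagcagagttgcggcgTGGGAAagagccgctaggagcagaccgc
HEYL: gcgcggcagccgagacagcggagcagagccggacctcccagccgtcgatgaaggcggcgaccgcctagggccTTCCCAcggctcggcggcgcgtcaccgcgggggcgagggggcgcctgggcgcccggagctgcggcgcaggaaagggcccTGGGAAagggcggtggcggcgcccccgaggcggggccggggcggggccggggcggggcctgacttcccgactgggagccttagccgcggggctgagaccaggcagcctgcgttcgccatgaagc
In HES1 both copies read along the gene and begin at -84 and -70, counted from the start at 0. In HEY2 the copies begin at -213, on the opposite strand, and at -3, on the strand of the gene. In HEYL they begin at -178, on the opposite strand, and at -99, on the strand of the gene. The HEY2 window belongs to a RefSeq start that differs from the gene start in GENCODE. HES1, lower in siEF, and HEYL, higher in siEF, share the word, and a match is a description of letters and not of binding.

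The remaining HES and HEY factors are given next. HEYL, the third HEY gene, had 16.3, 15.4 and 15.9 CPM in siEF, 2.53, 2.09 and 2.24 CPM in siNEG, and 2.91, 2.41 and 1.96 CPM in Media. All siEF libraries were above all controls, and Log2FC in siEF versus siNEG was 2.79 (SE 0.14, adjusted P = 1.22e-11, edgeR's quasi-likelihood test). HES4 (Log2FC -1.07, SE 0.12), HES6 (-1.25, SE 0.11) and HES7 (-2.48, SE 0.44) were lower in siEF, with adjusted P values of 4.12e-07, 4.02e-08 and 8.79e-05 in edgeR. HES6 is known to oppose HES1, and HES7 drives the segmentation clock of the embryo. HES7 had 2 to 6 counts in a siEF library and 20 to 57 in a control library, and it passed the filter through the controls alone, so its direction was fixed by the filter. HES2, HES3 and HES5 had no count in any library. Of the HES and HEY genes whose testing did not hinge on one side, HEY1 and HEYL were thus higher and HES1, HES4 and HES6 lower in siEF than in siNEG, and the split between the families was not tested.

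Expressed per length, HEY1 made up 69.5% ± 0.730 (SD, n = 3) of the summed HES and HEY level in siEF, 24.5% ± 0.718 (SD, n = 3) in siNEG and 15.3% ± 0.514 (SD, n = 3) in Media. The HES1 share was 11.4% ± 0.212 (SD, n = 3) in siEF, 38.0% ± 0.834 (SD, n = 3) in siNEG and 43.3% ± 0.561 (SD, n = 3) in Media. HES1 was the largest single share in both control groups and HEY1 in siEF. HEYL went from 1.20% ± 0.114 in siNEG to 6.41% ± 0.369 in siEF, and HES4 from 17.4% ± 0.633 to 6.42% ± 0.326 (SD, n = 3 each).

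**Figure D2:**
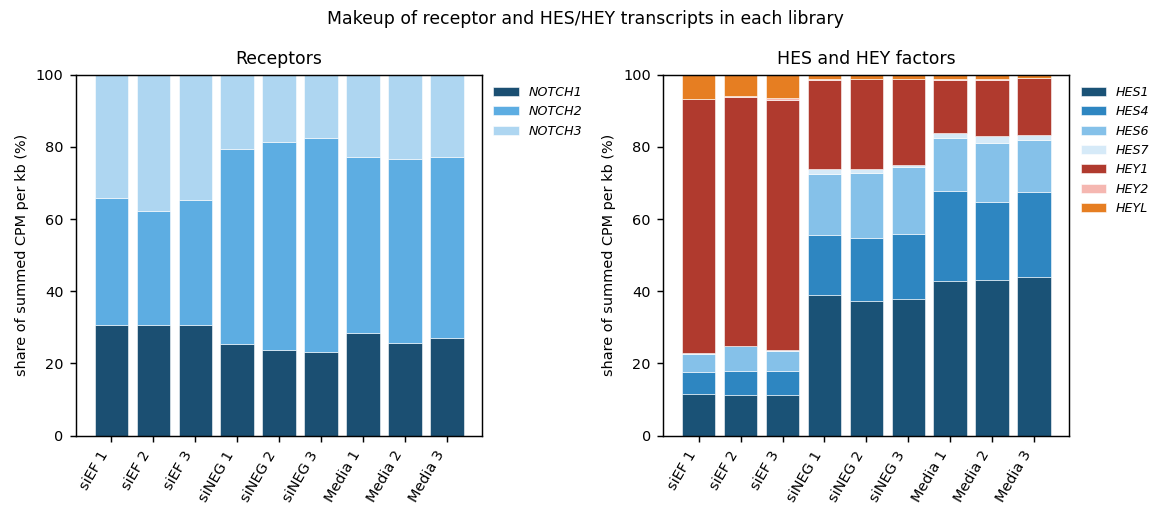
Share of each gene (%) in the summed CPM per kilobase of exon of the 3 receptors (left) and of the HES and HEY factors (right), 1 stacked bar per library. HES2, HES3 and HES5 are at 0 and not drawn. NOTCH2 takes most of the receptor level in siNEG (54.0% to 59.2%) and 31.6% to 35.3% in siEF, and HEY1 takes 68.9% to 70.3% of the HES and HEY level in siEF.

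The order of all 10 members per length of exon differed between siEF and the controls at every place above JAG2. In siEF HEY1, at 41.3 to 43.4 CPM per kilobase, stood far above JAG1, at 7.55 to 8.17 CPM per kilobase. HES1, NOTCH3 and NOTCH2 followed, each overlapping its neighbour in that order. NOTCH1, JAG2 and DLL3 came next, each apart from the one before, and HEY2 and DLL1 overlapped at the bottom. The order of the receptors in siEF changed with the length used, and with the longest transcript NOTCH2 had the largest share. In siNEG HES1 led at 17.3 to 18.2 CPM per kilobase, followed by NOTCH2 (10.4 to 12.7) and HEY1 (11.2 to 11.7), which overlapped, and then by JAG1, NOTCH1, NOTCH3, JAG2 and DLL3 with no overlap between neighbours. In Media HES1 led at 20.6 to 22.9 CPM per kilobase and was followed by NOTCH2 and HEY1, now apart, and the same genes after them. JAG2, DLL3, HEY2 and DLL1 closed the order in all 3 groups.

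The siNEG group was compared with Media in the same fit. Of the 9 members tested, HEY1 was higher, HES1 was lower and 7 were not changed, where 3.83% of all genes tested were higher and 5.96% were lower. In 5 of the 9 members the siNEG and Media libraries did not overlap, as in 32.7% of all genes. NOTCH2 had a Log2FC of 0.23 (SE 0.07, adjusted P = 0.027) and NOTCH3 of -0.25 (SE 0.07, adjusted P = 0.0169) in edgeR's quasi-likelihood test. Both passed the threshold with DESeq2, at adjusted P values of 0.00927 for NOTCH2 and 0.0079 for NOTCH3. For NOTCH1, JAG1, JAG2, DLL3 and HEY2 the Log2FC values were -0.13, 0.05, -0.23, 0.0031 and -0.52, with edgeR adjusted P values from 0.0643 to 0.998.

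The siEF libraries were also set against Media. This comparison shares the siEF libraries with that against siNEG, so its values stand beside the others and are no second observation. HEY1 had a Log2FC of 2.47, NOTCH3 of 0.44 and JAG1 of 0.22, and these 3 members were higher. HES1 (-1.64), NOTCH2 (-0.74) and JAG2 (-0.83) were lower, and NOTCH1, DLL3 and HEY2 were not changed. Among all genes tested, 33.6% were higher and 32.3% lower in siEF than in Media. The JAG1 rise had an adjusted P of 0.00494 and HEY2, at a Log2FC of 1.46 (SE 0.52), an adjusted P of 0.0181 in edgeR's quasi-likelihood test. FLI1 differed in both control comparisons as well, with Log2FC values of -0.35 (SE 0.06) in siEF against siNEG and -0.26 (SE 0.05) in siNEG against Media, and the part of FLI1 in the HEY1 and HES1 differences between siNEG and Media was not tested.

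**Figure D3:**
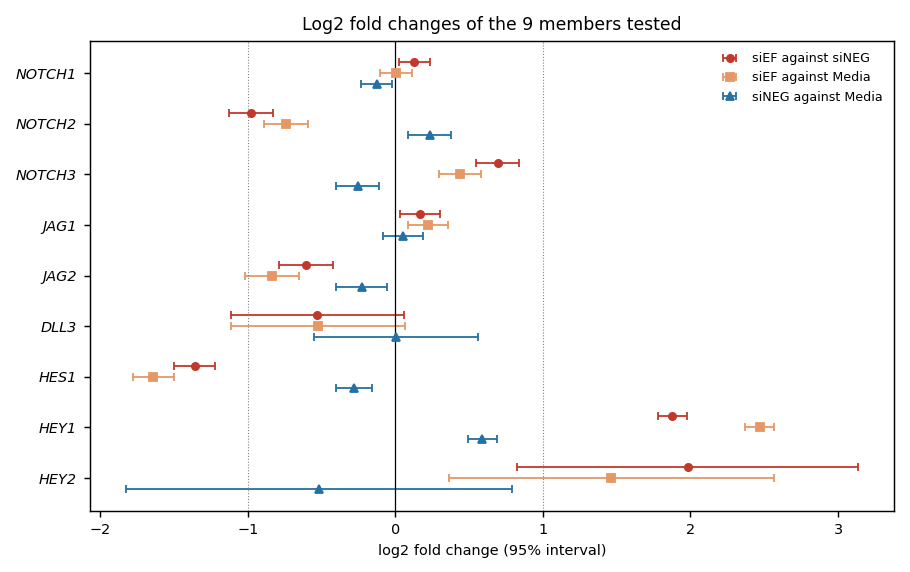
Log2 fold change (horizontal axis) with its 95% interval for the 9 members tested, in siEF against siNEG (circles), siEF against Media (squares) and siNEG against Media (triangles). Dotted lines mark Log2FC values of -1 and 1. HEY1 lies right of 0 and HES1 left of 0 in all 3 comparisons, and the HEY2 interval of siEF against siNEG runs from 0.83 to 3.13.

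A further 49 genes of the pathway were listed by their role, and 41 of them could be tested. NEURL1 was tested only because siEF passed the filter and HES7 only because the controls did. Of the other 39 genes, 20 were higher, 13 lower and 6 not changed in siEF against siNEG, with a median Log2FC of 0.20, where 33.6% of all genes tested were higher and 31.7% lower. Past a Log2FC of 1 in size, 11 were higher and 5 lower, beside 17.1% and 11.7% of all genes. In 35 of the 39 genes the siEF and siNEG libraries did not overlap, beside 76.9% of all genes. With NEURL1 and HES7 included, 21 of 41 were higher and 14 lower. NOTCH4, DLL4, DLK1, MFNG, DTX1, HES2, HES3 and HES5 were too low to be tested.

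**Figure D4:**
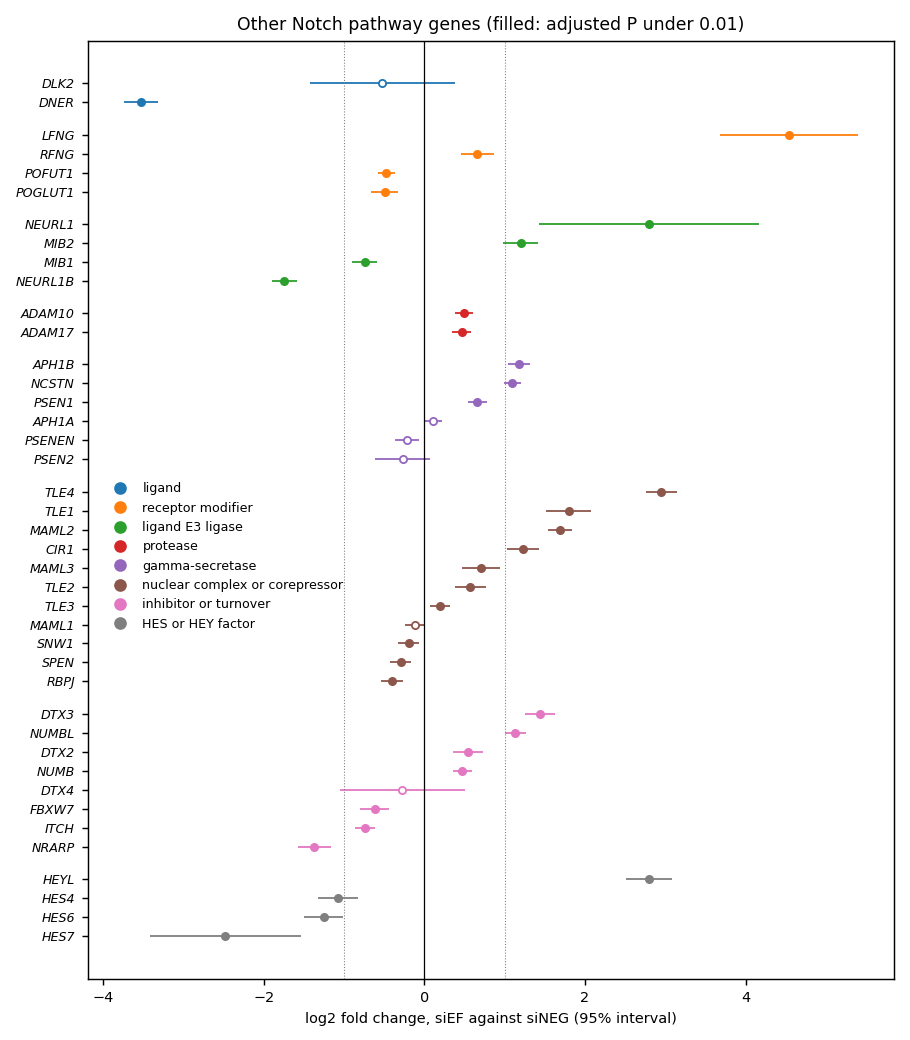
Log2 fold change of siEF against siNEG (horizontal axis) with its 95% interval for the 41 other pathway genes tested, coloured by role and ordered by value within each role. Filled circles have an adjusted P under 0.01 in edgeR's quasi-likelihood test, and dotted lines mark -1 and 1. LFNG (4.54) and DNER (-3.53) are the outermost genes.

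LFNG and DNER had the highest and the lowest Log2FC of the 41 genes tested. LFNG encodes Lunatic fringe, a sugar transferase that changes which ligands a receptor prefers, and it had 6.47, 6.51 and 7.40 CPM in siEF, 0.442, 0.383 and 0.0321 CPM in siNEG, and 0.620, 0.539 and 0.175 CPM in Media. No control library came near a siEF library, and Log2FC in siEF versus siNEG was 4.54 (SE 0.40, adjusted P = 2.72e-08, edgeR's quasi-likelihood test). siNEG replicate 3 held a single LFNG count, and over the groups 528 counts against 28 gave a depth-scaled ratio of 22.6 (exact 95% interval 15.5 to 34.4, counting error only). DNER encodes a neuronal transmembrane protein described as an atypical Notch ligand, and it fell from 37.2, 42.6 and 42.3 CPM in siNEG to 3.22, 3.13 and 4.11 CPM in siEF. Its Log2FC was -3.53 (SE 0.10, adjusted P = 1.31e-14, edgeR), and the Media libraries, at 35.8 to 38.8 CPM, lay near those of siNEG.

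Of the 4 ubiquitin ligases that help ligands to be internalised, which activates the receptor on the neighbouring cell, 1 was higher and 2 lower, leaving NEURL1 aside. MIB2 had a Log2FC of 1.20 (SE 0.10) and NEURL1B of -1.74 (SE 0.07), the latter at 77.6 CPM (SD 4.99) in siNEG and 23.3 CPM (SD 2.21) in siEF (n = 3 each). NEURL1 had 29, 14 and 21 counts in siEF, 3, 0 and 8 in siNEG and 9, 8 and 3 in Media, passed the filter through siEF alone, which fixed its direction, and had a depth-scaled ratio of 6.98 (exact 95% interval 3.65 to 14.7). Of the 4 receptor modifiers tested, 2 were higher and 2 lower. Beside both groups stand the 33.6% higher and 31.7% lower among all genes tested. A higher modifier, RFNG, shares 21.6% of its exon bases with GPS1 on the opposite strand.

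The proteases that cut the receptor were the groups without a fall past the threshold in siEF against siNEG. ADAM17 and ADAM10, which shed the outer part of the receptor and are named here after their values were seen, were higher, with Log2FC values of 0.47 and 0.49. Of the 6 genes for subunits of gamma-secretase, the complex that frees the intracellular part of the receptor, 3 were higher, 0 lower and 3 not changed, and with RLE scaling 1 was lower. Among all genes tested the shares were 33.6% higher and 31.7% lower. PSENEN, counted as not changed, was lower in every siEF library than in every siNEG library. Its Log2FC was -0.22 (adjusted P = 0.013, edgeR's quasi-likelihood test), and against Media it was called lower (adjusted P = 0.00946, edgeR). NCSTN, which encodes the subunit nicastrin, had 132, 126 and 132 CPM in siEF, 63.9, 59.0 and 59.7 CPM in siNEG, and 56.2, 54.7 and 54.6 CPM in Media, with a Log2FC of 1.09 (SE 0.05, adjusted P = 4.78e-12, edgeR's quasi-likelihood test). APH1B, another subunit, rose by a Log2FC of 1.17 (SE 0.06, adjusted P = 5.92e-11, edgeR). Neighbours on the opposite strand share 1.6% of the NCSTN exon bases (COPA) and 10.3% of those of ADAM17 (IAH1), so the counts there are uncertain.

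Of the 11 genes for the nuclear complex of the receptor or for corepressors, 7 were higher, 3 lower and 1 not changed, beside the same shares of 33.6% and 31.7% of all genes. TLE4 and TLE1 encode Groucho-type corepressors, which HES proteins recruit. TLE4 had 49.97, 46.5 and 49.0 CPM in siEF and 6.002, 6.57 and 6.22 CPM in siNEG, a Log2FC of 2.95 (SE 0.09, adjusted P = 2.92e-14, edgeR's quasi-likelihood test), and TLE1 had a Log2FC of 1.79 (SE 0.13). MAML2, a Mastermind coactivator, had 81.3, 76.6 and 79.1 CPM in siEF, 24.4, 24.6 and 24.7 CPM in siNEG, and 14.2, 17.8 and 17.1 CPM in Media. MAML2 was thus higher in siEF than in siNEG (Log2FC 1.69, SE 0.07) and higher in siNEG than in Media (0.58, SE 0.08, adjusted P = 4.8e-05, edgeR), the same order of groups as for HEY1. CIR1, a corepressor that binds RBPJ, had a Log2FC of 1.23 (SE 0.09). RBPJ itself, named here after its values were seen, fell from 72.8 CPM in siNEG (SD 2.67) to 55.0 CPM in siEF (SD 3.30, n = 3 each), a Log2FC of -0.40 (SE 0.06, adjusted P = 3.1e-05, edgeR).

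Among the 9 genes for inhibitors or turnover of Notch, 8 were tested, of which 4 were higher and 3 lower, again beside 33.6% and 31.7% of all genes. NRARP, a Notch target that encodes an inhibitor of the nuclear complex, had 5.42, 5.93 and 5.31 CPM in siEF, 15.2, 14.2 and 13.5 CPM in siNEG, and 12.5, 12.3 and 14.0 CPM in Media. It was lower in all siEF libraries, as HES1 was, with a Log2FC of -1.37 (SE 0.10, adjusted P = 1.58e-09, edgeR's quasi-likelihood test). DTX3, a member of the Deltex family of ubiquitin ligases, and NUMBL, a relative of the Notch inhibitor Numb, had Log2FC values of 1.43 (SE 0.09) and 1.13 (SE 0.06). In siNEG against Media 3 of the 41 other pathway genes changed by this test, MAML2 being higher, and HES4 (-0.51, SE 0.10) and NUMBL (-0.26, SE 0.06) lower, where 3.83% of all genes were higher and 5.96% lower. That count was 1 without siNEG replicate 1 or without siNEG replicate 2.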

How the data were processed

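RNA from 9 libraries of TC32 cells was sequenced by the authors, who deposited expected counts per gene, neither scaled for depth nor pooled. The labels give polyA RNA and a small RNA library kit. According to the methods, reads were mapped to hg38 with STAR and quantified with RSEM, which divides reads that match several genes. The submitters' processing notes also name FastQC, cutadapt 2.10 and DESeq2 1.32.0. The annotation release and the strand setting are not given in the sources used here. GENCODE 44, which holds 60306 of the 60603 identifiers, gave positions and exon lengths.

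Groups and replicate numbers came from the labels. The counts, rounded to integers, went through filterByExpr and TMM scaling in edgeR 4.0.16 (R 4.3.3). Its quasi-likelihood test was applied to contrasts of 1 fit of all 9 libraries with a mean per group, with Benjamini-Hochberg adjustment over the 16093 genes tested. Standard errors (SE) of log2 fold changes (Log2FC) were derived from the F statistics. For genes with few counts, exact intervals of the ratio of summed counts were computed (scipy 1.17.1, Python 3.11.15). No pair of libraries in a group agreed within sampling noise (chi-square per degree of freedom 3.57 to 23.2). The procedure was tested on simulated data.

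The genes named are the 10 members, every gene of the pathway list changed with a log2 fold change beyond 1, the NOTCH2NL genes and FLI1. Others were named after their values were seen. The members and lists were chosen with earlier results of these data known. Alternatives were upper quartile scaling, RLE scaling, DESeq2 1.42.0, other filters on low counts, only the libraries compared, a replicate block, unrounded counts, other call rules, another gene length, NOTCH2 with its copies added, and each library left out in turn.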

Additional observations from a re-analysis of the deposited data

How the results depend on the processing

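Directions of the members called in siEF against siNEG held under all alternatives run. In siEF against siNEG 6 members changed, HEY2 among them, whose direction the filter fixed. With a log2 fold change beyond 1 also required, the count was 3, again with HEY2. Under that rule the count was 0 in place of 2 in siNEG against Media and 2 in place of 6 in siEF against Media. For the other pathway genes it was 18, not 35, in siEF against siNEG, and 0, not 3, in siNEG against Media. Over all 16093 genes tested, the rule called 2757 higher and 1882 lower in siEF against siNEG. It called 26 and 43 in siNEG against Media, and 2793 and 2011 in siEF against Media. In siNEG against Media, 4 members changed when no low counts were filtered out, beside 2130 of all 29052 genes then tested. With DESeq2 4 members changed, beside 1889 of all 13839 genes then tested. At an adjusted P under 0.05, 4 members and 6 other pathway genes changed. Leaving out a library gave 1 to 3 members and 1 to 3 other pathway genes in that comparison. The NOTCH2 share of the receptor level per length was 39.0% in siEF, 62.0% in siNEG and 55.2% in Media with the longest transcript as the length. The log2 fold change of NOTCH2 in siEF against siNEG ranged from -1.10 to -0.70 over the alternatives, that of NOTCH3 from 0.62 to 0.78, of JAG2 from -0.66 to -0.52, of HES1 from -1.40 to -1.27 and of HEY1 from 1.84 to 1.96, all past the threshold. HEY2 could not be tested with at least 10 counts in every library. Same-numbered libraries did not deviate together (correlations from -0.088 to 0.048). This check showed no pairing by number, but with 3 libraries per group it cannot exclude one. With the replicate block, 5 members changed in siEF against siNEG, 3 in siNEG against Media and 6 in siEF against Media. Of the other pathway genes, 35 changed in siEF against siNEG and 3 in siNEG against Media. Over all 16093 genes tested with the block, 10386, 1498 and 10474 changed in the same order of comparisons. Genes whose testing hinged on siEF or on the controls alone (HEY2, NEURL1 and HES7) were left out, a choice made after seeing the data. Then 5 members and 33 other pathway genes changed in siEF against siNEG. With a log2 fold change beyond 1 also required, 1 member was higher and 1 lower, and 11 other pathway genes higher and 5 lower. DLL1 and HEY2 are limited by their few counts.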
